A study of Ambystoma mexicanum with 2 samples.

Results

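The miR-10 family of the axolotl tail was followed in 2 small RNA libraries. The blastema library was made from regenerating tail tissue 3 days after injury, and the control library from uninjured tails that had never regenerated. The paper describes the blastema as a mound of undifferentiated cells, but its stained section of the regenerating tail also held skin and radial glia. Tail tissue of 20 mature Mexican axolotls was pooled, and each condition had 1 library, so there was no replicate and no test of the condition. The members are all mirBase entries, of any species, whose family label in the deposited table is miR-10 with at most 1 further letter. They numbered 131 of 9277 known entries, under the 5 labels miR-10, miR-10a, miR-10b, miR-10c and miR-10d of 4563. The deposited counts summed to 9952885 reads in the blastema library and 12613931 in the control library, and every share given is of these totals.

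A microRNA is cut from a hairpin, whose left and right arms give the 5p and 3p products, and the loaded arm represses messenger RNAs that pair with its seed, the bases near its 5′ end. The genes of miR-10 lie inside the Hox clusters, next to paralog group 4, and are transcribed with the Hox genes that pattern the body axis, while miR-196 lies next to paralog group 9. In zebrafish miR-10 represses Hox genes of the anterior groups, and in human breast cancer cells miR-10b represses HOXD10. The RefSeq gene table of the axolotl assembly UKY_AmexF1_1 lists 37 HOX genes, with HOXA4, HOXB4, HOXC4 and HOXD4 among them. The mature sequences of mirBase were not used here, so the known members are given by name and without position.

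Sequences that the authors could not map to mirBase were grouped by them into families, and 5 of these have a listed partial homology to miR-10. Their listed sequences are shown because the letters bear on how near each is to miR-10, and the capitals mark the bases ACCCTG, with which 3 of them begin and which lie in the seed of the 5p arm.
Amex-miR-pn565: acaaattcgtgtctaggggaat
Amex-miR-pn802: accatgtagagcagaatgtgt
Amex-miR-pn825: ACCCTGgagagccgaattggt
Amex-miR-pn827: ACCCTGtaaagccgaatgtat
Amex-miR-pn828: ACCCTGtcgctccgactttgt
These 6 bases are the shared start of the listed sequences of Amex-miR-pn825, Amex-miR-pn827 and Amex-miR-pn828. Their presence there is thus fixed by how they were chosen and is no measure of likeness to miR-10. Read on the sequenced strand, they open 5 of the 21 sequences of the 5 families and 19 of all 59811 unmapped sequences, or 0.0318%. A sequence of Amex-miR-pn802 that is not listed above also begins with them, and the most abundant sequence of Amex-miR-pn828 does not. The letters of Amex-miR-pn565 differ from the other 4 and resemble the 3p arm, which is background knowledge and was not checked against mirBase.

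As a family, miR-10 was a minor part of both libraries and held a larger share of the blastema reads. It had 24870 reads in the blastema, a share of 0.250% (Wilson 95% interval 0.247 to 0.253), against 12825 reads in the control, a share of 0.102% (0.0999 to 0.103). The log2 ratio of blastema over control, with 0.5 read added to each count, was 1.30 (counting-error interval 1.27 to 1.33). This is a 2.46-fold higher share, but the log2 ratio was -0.0967 on totals without muscle microRNAs and -0.84 with TMM, the scaling of edgeR. TMM was run on the known labels and the unmapped families together, and it assumes that most of these do not change. The intervals account for counting error alone, as reads copied by PCR from 1 molecule are not independent. The shift in the totals was large: muscle microRNAs (the families miR-499, miR-208, miR-206, miR-133 and miR-1) took 14.3% of the blastema reads and 67.4% of the control reads, and the ratio of -0.0967 is the one without them. Fewer cells of a type and less of a microRNA per cell cannot be told apart.

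Relative to other microRNAs the family stood low. Over the 197 known labels that reached 1000 reads in sum, the median log2 ratio was 2.08, from which the family differed by -0.78, and of the 193 such labels outside the family 23.8% had a lower ratio. A fold of 2 or more served as the call, and among labels with 10 reads or more 84.3% met it towards the blastema and 1.84% towards the control. Of the miR-10 labels 4 of 5 met it towards the blastema and 0 of 5 towards the control, a split near this background. The median of the abundant labels itself was 0.69 without the muscle microRNAs and -0.0550 with TMM.

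**Figure D1:**
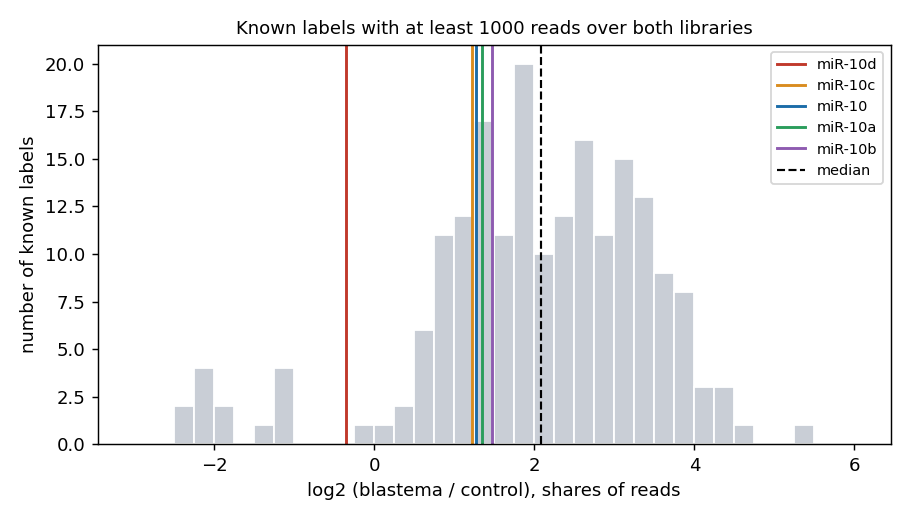
Histogram of the log2 ratio of blastema over control for the 197 known labels that reached 1000 reads in sum. Coloured lines mark the 5 miR-10 labels (miR-10d has fewer than 1000 reads) and the dashed line the median of 2.08. All 5 labels lie left of the median, 4 of them between 1.23 and 1.47 and miR-10d at -0.35, on the total of all deposited reads (with TMM all 5 are below 0).

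The labels miR-10 and miR-10a carried most of the family, as sums over 35 and 34 entries. The single entry with the most blastema reads was of miR-10c, with 1497, against at most 450 for miR-10 and 495 for miR-10a. A label sum depends on its number of entries and is not the level of a single microRNA. miR-10 had 10653 blastema reads and 5578 control reads, or 1070 and 442 RPM (reads scaled to the library's deposited total). miR-10a had 10428 blastema reads and 5194 control reads, or 1048 and 412 RPM. The order of the 5 labels by reads was the same in both libraries. miR-10b, the member best known from tumour cells, had 2019 blastema reads and 922 control reads. miR-10c had 1609 and 870. By the Wilson intervals of the shares, the neighbours miR-10 and miR-10a did not separate in the blastema (0.105% to 0.109% for miR-10 and 0.103% to 0.107% for miR-10a), and miR-10b and miR-10c did not separate in the control (0.00685% to 0.00780% and 0.00645% to 0.00737%).

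miR-10d was the exception. It had 161 reads in the blastema, or 16.2 RPM, against 261 in the control, or 20.7 RPM. Its log2 ratio was -0.35 (-0.64 to -0.0705), the only one below 0 among the 5 labels on the total of all deposited reads, but with known reads only as the total it was -0.16, with an interval that includes 0 (-0.45 to 0.12). Its part of the family was 0.647% (0.555 to 0.755) in the blastema and 2.04% (1.80 to 2.29) in the control. Among the labels by number of reads, miR-10d ranked 349 in the blastema and 176 in the control, while miR-10 ranked 63 and 39.

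**Figure D2:**
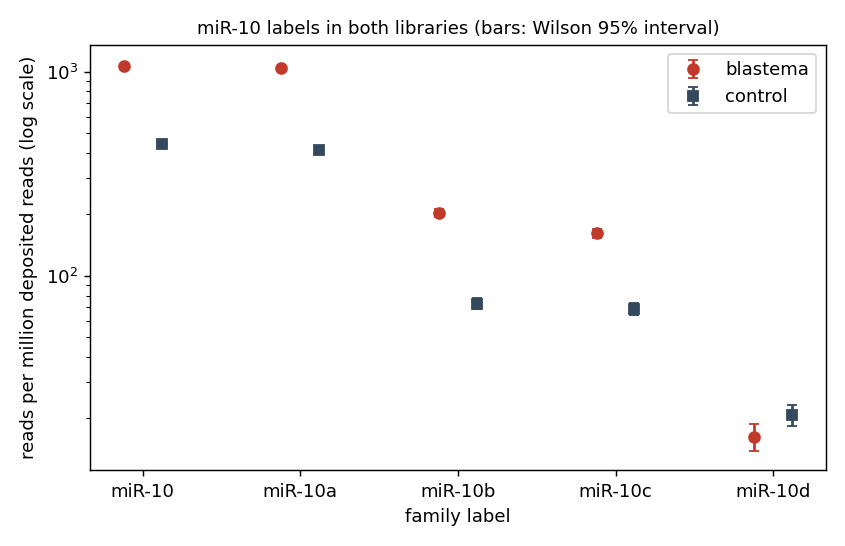
Level in RPM, with a log axis, of each miR-10 label in the blastema library (circles) and the control library (squares), with Wilson 95% intervals. The blastema value is above the control value for miR-10, miR-10a, miR-10b and miR-10c, and below it for miR-10d, and with TMM all 5 are lower in the blastema.

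Differences between labels do not depend on the total used, because it cancels. Of the 10 pairs of labels, the 4 pairs with miR-10d gave the largest differences. The log2 ratio of miR-10d was lower than that of all other members together by 1.67 (a difference of -1.67, counting-error interval -1.96 to -1.39), which is 3.18-fold. The other 4 labels lay close to each other, with log2 ratios of 1.28 for miR-10, 1.35 for miR-10a, 1.47 for miR-10b and 1.23 for miR-10c. Here miR-10b exceeded miR-10c by 0.24 (0.0800 to 0.41) and miR-10 was below miR-10b (a difference of -0.20, -0.32 to -0.0753). By intervals that end close to 0, miR-10 was also below miR-10a (a difference of -0.0721, -0.14 to -0.00509). In the same way miR-10a was below miR-10b (a difference of -0.12, -0.25 to -0.00270). For miR-10a against miR-10c the difference was 0.12, with an interval that includes 0 (-0.00951 to 0.25), and for miR-10 against miR-10c it was 0.0467 (-0.0811 to 0.17). These intervals treat the labels as separate counts and were not adjusted for the 10 pairs. Within miR-10a alone, the entries with at least 100 control reads had log2 ratios from 1.01 to 1.73. The small differences among these 4 labels are therefore not shown to be differences between microRNAs.

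**Figure D3:**
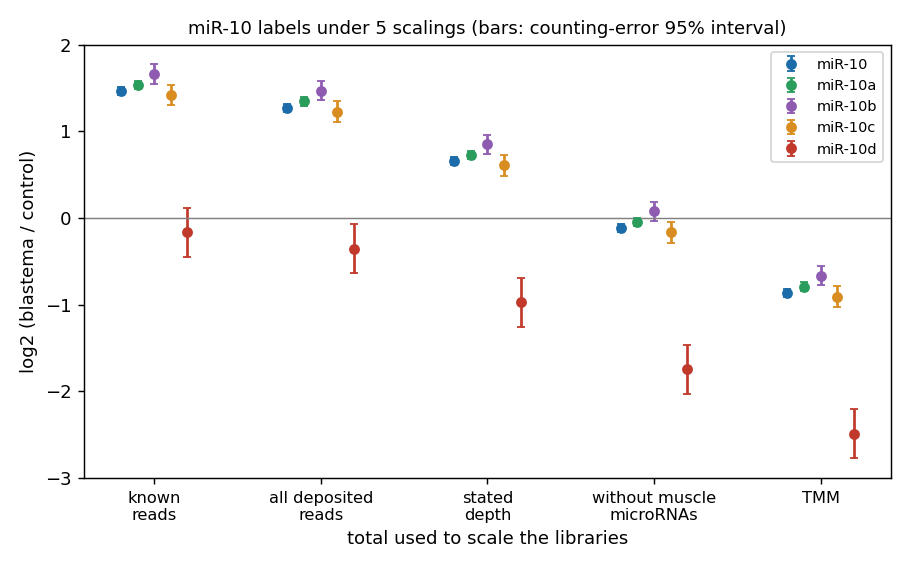
Log2 ratio of blastema over control of each miR-10 label under 5 totals, with counting-error 95% intervals. The labels move together, from values between 1.23 and 1.47 for miR-10 to miR-10c with all deposited reads to values between -0.91 and -0.66 with TMM, while miR-10d lies below the other labels under each total and below 0 by its value, with an interval that includes 0 for known reads only.

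The labels follow the names given in other species and are not shown to be separate axolotl genes. Of the 35 entries of the label miR-10, 34 come from invertebrates, such as insects and sea urchins, and 1 from a bat, whereas 30 of 34 entries of miR-10a, 36 of 41 of miR-10b, 10 of 12 of miR-10c and 8 of 9 of miR-10d come from vertebrates. How reads with matches to more than 1 entry were assigned is not given in the sources used here. Entries of the same label often had near-equal counts: 32 entries of miR-10 had 284 to 450 reads in the blastema and at most 226 in the control, and together 99.8% of the label's reads in each library. Likewise 26 entries of miR-10a had 294 to 495 blastema reads and 136 to 261 control reads. The entries are therefore not replicates of each other. All 46 invertebrate entries gave a log2 ratio of 1.29 (1.24 to 1.33) and the 44 mammalian entries 1.36 (1.30 to 1.41). The 8 reptile entries gave 1.29, the 27 fish entries 1.06 (0.94 to 1.17) and the 3 bird entries 1.72 (1.48 to 1.97). The intervals of fish and birds do not overlap, but the clades hold different labels. All 8 vertebrate entries of miR-10d, the label with the lowest ratio, are from fish, and no bird entry has that label. A fish value without miR-10d was not computed.

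The clawed frog Xenopus tropicalis is the only amphibian among the members' species. Its 3 entries held 447 blastema reads and 271 control reads, 1.80% of the family in the blastema and 2.11% in the control. xtr-miR-10a had 393 blastema reads and 247 control reads, a log2 ratio of 1.01 (0.78 to 1.24) that was below 0 without the muscle microRNAs and with TMM. xtr-miR-10b had 50 and 20 reads, a log2 ratio of 1.64 (0.90 to 2.38) that was below 0 with TMM. xtr-miR-10c had 4 reads in each library.

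Of the 131 entries, 130 had reads in both libraries and 121 had 10 reads or more in sum. Of these 121, 103 had a blastema share above the control share by a fold of 2 or more and 4 had one below it by that fold, but with TMM 2 were higher and 31 lower, and 0 were lower with known reads only as the total or with 5 reads added. The background over all 6854 known entries with 10 reads or more was 79.3% higher and 4.9% lower by that fold. By label, the higher ones were 32 of 33 for miR-10, 31 of 33 for miR-10a, 34 of 37 for miR-10b, 6 of 10 for miR-10c and 0 of 8 for miR-10d. The 4 lower ones are all from fish: dre-miR-10d-5p, ccr-miR-10d and hhi-miR-10d, and pol-miR-10b-5p. These entries were named after their values were seen.

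**Figure D4:**
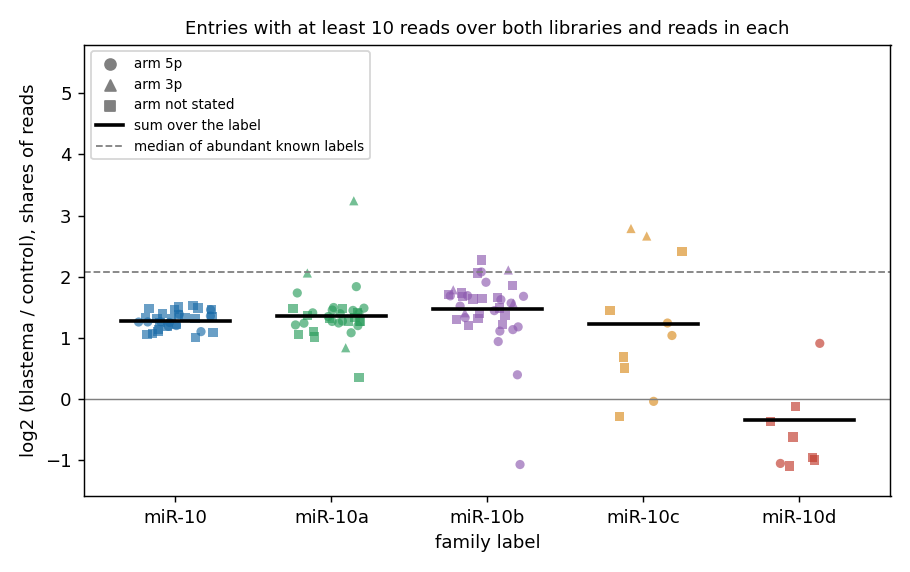
Log2 ratio of blastema over control of the 120 entries with 10 reads or more in sum and reads in each library, by label, with the arm given by the symbol. The black line is the ratio of the label's summed reads and the dashed line the median of 2.08 of the abundant known labels. Most entries of miR-10 and miR-10a lie close to their line, entries of miR-10b and miR-10c spread widely, and 7 of the 8 entries of miR-10d lie below 0, on the total of all deposited reads (with TMM all label lines lie below 0).

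Within miR-10d, 7 of the 8 entries with 10 reads or more had a lower share in the blastema. hhi-miR-10d, from halibut, had 14 blastema reads and 39 control reads. ccr-miR-10d, from carp, had 15 and 39. tni-miR-10d, from pufferfish, had 28 and 39. The entry with the most reads of the label went the other way: ssa-miR-10d-5p, from Atlantic salmon, had 49 blastema reads and 33 control reads, a log2 ratio of 0.91 (0.27 to 1.54) that was below 0 without the muscle microRNAs and with TMM. Its ratio exceeded that of the other miR-10d entries by 1.59 (0.87 to 2.30). Without it, miR-10d had 112 blastema reads and 228 control reads, a log2 ratio of -0.68 (-1.01 to -0.35).

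miR-10b also held an entry unlike the rest. pol-miR-10b-5p, from the olive flounder, had 12 blastema reads and 33 control reads, a log2 ratio of -1.08 (-2.02 to -0.14), and it lay below the other miR-10b entries together by 2.60 (a difference of -2.60, -3.54 to -1.65). The entries of miR-10b with the most reads were fru-miR-10b, from another pufferfish, with 127 blastema reads and 69 control reads, and bta-miR-10b, from cattle, with 98 and 34. On the 5p arm, mmu-miR-10b-5p, from mouse, had 92 and 36 and dre-miR-10b-5p, from zebrafish, 89 and 35. In each of these 4 entries the blastema count was the higher one, without any scaling to depth. Their log2 ratios were 1.22, 1.86, 1.68 and 1.68 on the total of all deposited reads. TMM adds -2.14 to each log2 ratio, which puts all 4 below 0. By the depth stated in the paper the blastema library is also the deeper one.

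miR-10c rested on 1 entry. oha-miR-10c-5p, from the king cobra, had 1497 blastema reads and 804 control reads, 93.0% of the label in the blastema and 92.4% in the control, and it was the only entry of the family to reach 1000 reads in sum. Its log2 ratio was 1.24 (1.11 to 1.36), and below 0 without the muscle microRNAs and with TMM. The other entries of miR-10c together had 112 blastema reads and 66 control reads. Their log2 ratio was 1.10 (0.66 to 1.54), within counting error of the cobra entry, with a difference of -0.14 (-0.59 to 0.32). aca-miR-10c-5p, from the anole lizard, had 10 and 6 reads, ipu-miR-10c, from channel catfish, 9 and 8, and ccr-miR-10c, from carp, 12 and 19.

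The entries of miR-10 with the most reads were spu-miR-10 and sko-miR-10, from a sea urchin and an acorn worm, with 450 and 441 blastema reads. On its 5p arm, lva-miR-10-5p, from another sea urchin, had 422 blastema reads and 225 control reads, and tur-miR-10-5p, from a spider mite, had 360 and 191. Of miR-10a, oha-miR-10a-5p had 495 blastema reads and 261 control reads, aca-miR-10a-5p 458 and 213, and age-miR-10a, from a spider monkey, 426 and 215.

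The 3p arm, the less abundant product by the entries with a named arm, had a higher log2 ratio in sum than the 5p arm. Entries named 3p numbered 11 and had 317 blastema reads and 102 control reads, a log2 ratio of 1.97 (1.65 to 2.29), which was -0.16 with TMM. The 53 entries named 5p had 11705 and 5957 reads, a log2 ratio of 1.32 (1.27 to 1.36), and the 67 entries without an arm in their name had 12848 and 6766, a log2 ratio of 1.27 (1.22 to 1.31), and both of these were below 0 without the muscle microRNAs and with TMM. Independently of the total, the ratio of the 3p arm exceeded that of the 5p arm by 0.66 (0.33 to 0.98). Of the reads with a named arm, the 3p arm held 2.64% (2.37 to 2.94) in the blastema and 1.68% (1.39 to 2.04) in the control.

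Each label with 3p entries showed a higher 3p share in the blastema, though not always beyond counting error. For miR-10a it was 3.64% (3.20 to 4.14) in the blastema and 2.64% (2.12 to 3.28) in the control. For miR-10b it was 5.74% (4.43 to 7.42) and 3.74% (2.35 to 5.90), and for miR-10c 2.63% (1.95 to 3.55) and 0.846% (0.411 to 1.74). The 3p entries with the most reads were ssa-miR-10a-3p, with 126 blastema reads and 38 control reads, and dre-miR-10a-3p, with 48 and 34. Their log2 ratios were 2.06 (1.54 to 2.58) and 0.83 (0.20 to 1.46), on either side of the 1.32 of the 5p arm. The remaining 3p entry of miR-10a, ssa-miR-10a-2-3p, had 48 and 6 reads, a log2 ratio of 3.24 (2.06 to 4.42). It was named after its value was seen, and the 3p share of miR-10a without it was not computed. The 3p entries of miR-10c with the most reads were aca-miR-10c-3p, with 24 and 4, and oha-miR-10c-3p, with 17 and 3. Those of miR-10b were chi-miR-10b-3p, from goat, with 11 and 5, and hsa-miR-10b-3p, from human, with 10 and 4. mdo-miR-10b-3p, from opossum, was the only member with reads in 1 library, with 10 blastema reads and 0 control reads. On the total of all deposited reads, its blastema share was at least 4.22-fold higher against 3 control reads in place of 0. This bound does not hold with TMM, which adds -2.14 to each log2 ratio.

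The unmapped families that resemble miR-10 went in both directions. Amex-miR-pn565, the family with letters like the 3p arm, had 86 blastema reads and 30 control reads over 3 sequences. The log2 ratio was 1.85 (1.25 to 2.44), and -0.29 with TMM. All counts of unmapped sequences are even, and division of each by 2 widened this interval to 0.99 to 2.67. The totals were left undivided, and the total of known reads only, which holds no unmapped reads, adds 0.19 to each log2 ratio. The most abundant sequence of Amex-miR-pn565, the one listed above, had 64 blastema reads and 16 control reads. Amex-miR-pn802 had 18 blastema reads and 20 control reads, a log2 ratio of 0.19 with an interval that includes 0 (-0.71 to 1.10), and Amex-miR-pn825 had 4 reads in each library, too few to show a difference at this depth. Of all 6846 unmapped families with 10 reads or more, 75.1% were higher in the blastema by a fold of 2 or more and 16.3% lower by that fold.

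As grouped by the authors, Amex-miR-pn827 and Amex-miR-pn828 were nearly confined to the control library. Only unmapped sequences above a minimum count entered a family. All 6 sequences of Amex-miR-pn827 and 7 of the 8 of Amex-miR-pn828 had control reads alone, so they passed this filter through the control. The low blastema values of both families are therefore partly built in. Amex-miR-pn827 had 0 blastema reads and 110 control reads over 6 sequences, which put its blastema share at least 28.9-fold lower against 3 reads in place of 0, or at least 14.5-fold after division of the counts by 2. Amex-miR-pn828 had 2 blastema reads and 108 control reads over 8 sequences, for a log2 ratio of -5.10 (-6.91 to -3.29), with an interval of -7.18 to -2.50 after that division. The known labels that Amex-miR-pn828 resembles, miR-10, miR-10a and miR-10b, had more reads in the blastema without scaling, and log2 ratios below 0 with TMM.

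**Figure D5:**
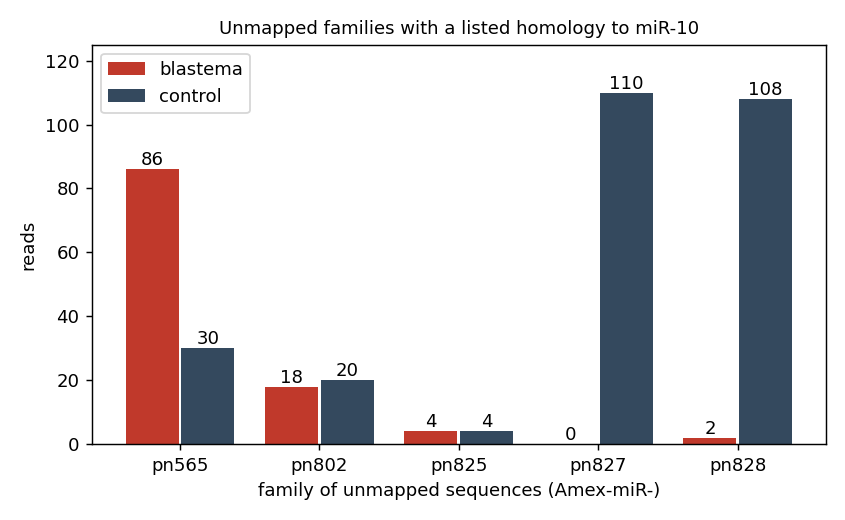
Reads of the 5 unmapped families with a listed homology to miR-10 in the blastema library (left bars) and the control library (right bars), without scaling. Amex-miR-pn565 has 86 blastema reads and 30 control reads, while Amex-miR-pn827 and Amex-miR-pn828 have 0 and 2 blastema reads and 110 and 108 control reads.

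The sequences of Amex-miR-pn828 are shown because they differ from each other at 5 positions, in capitals, and each of these holds only A or C. Read counts are given after them.
Amex-miR-pn828 listed sequence: AccctgtCgCtccgACtttgt
Amex-miR-pn828 sequence with the most reads: CccctgtCgCtccgCCtttgt
Amex-miR-pn828 other sequence: CccctgtCgAtccgACtttgt
Amex-miR-pn828 further sequence: CccctgtAgAtccgCCtttgt
The listed sequence had 2 blastema reads and 6 control reads. The sequence with the most reads had 0 blastema reads and 32 control reads, and against the listed one it has the substitutions A1C and A15C, counted from 1 at the 5′ end. The third had 0 and 18 reads and the last 0 and 8. Because these 5 positions hold only A or C, the 8 sequences necessarily became 1 when A and C were read as the same letter. For the same reason no other pair of letters could merge them. For Amex-miR-pn827, 4 of the 6 sequences were left with A and C as the same letter, 4 also with A and G, and 5 with C and G.

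The sequences of Amex-miR-pn827 were closer to unmapped sequences that resemble muscle microRNAs than to the other miR-10-like families. Each differed by 1 to 3 bases from the nearest of 4709 sequences in families with a listed homology to miR-1 or miR-206 and none to miR-10, and by 4 to 6 from the nearest sequence of the other 4 miR-10-like families, which hold far fewer sequences. A pair is shown as an example, with the differing base in capitals.
Amex-miR-pn827 member: ggcctgtaaagcCgaatgtat
Amex-miR-pn5154 member: ggcctgtaaagcAgaatgtat
The first had 0 blastema reads and 28 control reads, and the second, whose family lists homologies to miR-1b, miR-1 and miR-1a, had 0 and 8. From the second to the first the substitution is A13C. The 3 sequences of Amex-miR-pn802, which like Amex-miR-pn827 lists miR-10d and miR-10b, also lay nearer to the muscle-like families, at a distance of 2 against 4 to 5. For Amex-miR-pn828 the distances were 8 to 9 to the muscle-like families and 6 to 8 to the other miR-10-like ones. The muscle-like families held 0.451% of the blastema reads and 2.66% of the control reads, and their part in the low blastema counts of Amex-miR-pn827 was not tested.

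The other Hox cluster microRNAs, used here for comparison, had a higher ratio than miR-10. All 5 labels of miR-196 were higher in the blastema by a fold of 2 or more, with a median log2 ratio of 3.11, a count near the 84.3% of all labels that met this call. A label miR-615 was also looked for and was not found among the known labels. Together the miR-196 labels had 29886 blastema reads and 3044 control reads, so that miR-196 exceeded miR-10 in the blastema, with 0.300% against 0.250%, and was lower in the control, with 0.0241% against 0.102%. The log2 ratio of miR-10 was lower than that of miR-196 (a difference of -2.34, -2.40 to -2.28), which does not depend on the total. Of the named labels, miR-196a had 3720 blastema reads and 544 control reads, miR-196b 2313 and 443, miR-196d 22425 and 1865, and the label miR-196 1267 and 162.

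The relatives miR-99 and miR-100, whose mature sequence resembles miR-10 with a shifted seed, were near the family in sum but split by label. Of their 9 labels, 6 had 10 reads or more, with a median log2 ratio of 1.22. Of these 6, 3 were higher in the blastema by a fold of 2 or more, against 84.3% of all labels with 10 reads or more. Summed, they had 4099 blastema reads and 2265 control reads, and the log2 ratio of miR-10 exceeded theirs by 0.0998 (0.0196 to 0.18). The log2 ratios of miR-99 (0.49), miR-99a (0.66) and miR-99b (0.95) lay below that of the family, and those of miR-100e (1.90) and miR-100 (2.64) above it. miR-99a had 1107 blastema reads and 889 control reads, miR-99b 943 and 619, and miR-100e 1463 and 495. miR-99, miR-100 and miR-100b, with fewer than 1000 reads each, were named after their values were seen.

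Among the 74 labels outside the family that reached 10000 reads in sum, 4 had a log2 ratio nearest to that of the summed family: miR-30e (1.34), let-7e (1.35), miR-26c (1.35) and miR-199 (1.23). The likeness is the absolute difference in log2 ratio over 2 libraries, at most 0.0633 for these, and it says nothing beyond that. Markers of other tissues also differed between the libraries. The 14 epithelial labels held 2.43% of the blastema reads and 0.221% of the control reads, the 15 neural labels 0.329% and 0.131%, the 9 leukocyte labels 0.262% and 0.0266%, and the 4 erythroid labels 0.0103% and 0.00166%. Against the median log2 ratio of 2.08 of the abundant labels, the neural sum was lower (1.33). The epithelial (3.46), leukocyte (3.30) and erythroid (2.62) sums were higher than that median. Among single labels with 10 reads or more, only the epithelial ones all lay above it, from 2.52 to 4.04. Leukocyte labels ranged from 0.67 to 4.18, erythroid labels from 1.54 to 3.43 and neural labels from 0.49 to 3.38, on both sides of that median. Of the 16 muscle labels, 14 were lower in the blastema by a fold of 2 or more, against 1.84% of all labels with 10 reads or more. The part of these tissues in the miR-10 values was not tested.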

How the data were processed

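Per the paper's methods, the authors trimmed adapters and low-quality ends with ShortRead and mapped the reads to mirBase 21 with Bowtie 1.1.2, allowing 2 mismatches. The paper's results name a narrow range of lengths for the mapped reads. How this range bears on the shares of members, arms and labels of other lengths was not tested. The deposited counts are reads of each entry and of each unmapped sequence, without normalization. The authors grouped unmapped sequences above a minimum count within a Levenshtein distance of 4 and summed them. The deposited columns of normalized and log2 values and of log2 fold changes hold the authors' own comparison and were not used.

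Counts were summed by label and by arm, as named in the entry. A share of 0 counts allows up to 3.01e-05% in the blastema and 2.38e-05% in the control. Intervals of log2 ratios are from the Poisson error of both counts, and no p-value was computed. Vertebrate species were told from the prefix of the entry. Named are all labels, the 2 entries with the most reads per label and arm, entries with at least 1000 reads or with reads in 1 library only, the 4 labels nearest in log2 ratio and labels of the comparison lists with at least 1000 reads. Other names were chosen after their values were seen. The members and lists were chosen with earlier results of these data known. The lists by tissue were muscle, epithelial, neural, leukocyte and erythroid. Alternatives were 4 other totals, 5 reads added, vertebrate entries only, the entry with the most reads, other minimums of reads and 4-fold. The calculation of the log2 ratio and its interval was first tested on simulated Poisson counts. The tools were edgeR 4.0.16 in R 4.3.3, and SciPy 1.17.1, NumPy 2.4.6 and pandas 2.3.3 in Python 3.11.15, with plots by Matplotlib 3.10.9.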

Additional observations from a re-analysis of the deposited data

How the results depend on the processing

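The log2 ratios depended on the total. With known reads only they were 1.49 for the family, 1.47 for miR-10, 1.54 for miR-10a, 1.66 for miR-10b, 1.42 for miR-10c, -0.16 for miR-10d (-0.45 to 0.12), 1.51 for the 5p arm and 1.46 for entries without an arm. With the depth stated in the paper they were 0.68 for the family, 0.65 for miR-10, 0.73 for miR-10a, 0.85 for miR-10b, 0.61 for miR-10c, -0.97 for miR-10d, 0.70 for 5p, 1.35 for 3p and 0.65 without an arm, and 25 entries in place of 103 were at least 2-fold higher. By that depth the blastema library is the deeper, by the deposited totals the control library. With the muscle microRNAs left out they were -0.0967 for the family, -0.12 for miR-10, -0.0467 for miR-10a, 0.0782 for miR-10b, -0.17 for miR-10c, -1.75 for miR-10d, -0.0778 for 5p, 0.58 for 3p, -0.13 without an arm, -0.16 for oha-miR-10c-5p and -0.38 for xtr-miR-10a, with 5 entries 2-fold higher. With TMM they were -0.84 for the family, -0.86 for miR-10, -0.79 for miR-10a, -0.66 for miR-10b, -0.91 for miR-10c, -2.49 for miR-10d, -0.82 for 5p, -0.16 for 3p, -0.87 without an arm, -0.90 for oha-miR-10c-5p, -1.13 for xtr-miR-10a, -0.49 for xtr-miR-10b and -0.29 for Amex-miR-pn565, with 2 entries 2-fold higher. These totals add the same value to each log2 ratio. At 4-fold, 10 entries were higher.

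The entry with the most reads in place of the sum gave 1.24 for the family, 1.33 for miR-10, 1.26 for miR-10a, 1.22 for miR-10b and 0.91 for miR-10d, so that the direction of miR-10d rests on its other entries. The single vertebrate entry of the label miR-10 gave 1.53. With 5 reads added, the family, its 5 labels, the 3 classes of arm and the 5 entries for which this was run stayed within their intervals. The 4 entries lower by a fold of 2 or more became 0 with 5 reads added or with known reads only. No paired analysis was possible because each condition has 1 library.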

Other observations

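A search made after seeing the data compared unmapped sequences in no family with the miR-10-like ones. Within 3 edits of any of their 21 sequences were 99 sequences, each with 6 reads over both libraries. Together they had 82 blastema reads and 512 control reads. Of these, 79 were nearest to Amex-miR-pn827, with 38 blastema reads and 436 control reads, and 13 to Amex-miR-pn802, with 32 and 46. The 3 nearest to Amex-miR-pn825 had 12 blastema reads and 6 control reads, and the 4 nearest to Amex-miR-pn828 had 0 and 24. The distance of these sequences to the muscle-like families, to which Amex-miR-pn827 and Amex-miR-pn802 lay nearer, was not measured. The counts are therefore not shown to be of miR-10-like sequences.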
